A study of Mus musculus with 12 samples.

Results

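The subunits of the GABA-A receptor form the chloride channel through which GABA, the main inhibitory transmitter of the adult cortex, acts within milliseconds. The genes described here are the 7 named subunit genes Gabra2, Gabra3, Gabra4, Gabra5, Gabrb1, Gabrb2 and Gabrd, out of 18820 genes with a probe set of their own. They were chosen by name, and each was taken by its brightest single-gene probe set over the 12 animals, with every other probe set shown where there were several. Only Gabrb2 had several, so that the 7 genes stood on 9 probe sets. A further probe set that Gabra5 shares with another gene was not used.

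Expression was measured with Affymetrix Mouse Gene 1.1 ST arrays in the medial prefrontal cortex (anterior cingulate, prelimbic and dorsal infralimbic cortex) of C57BL/6N mice aged 12 weeks. The PolyI:C group was 6 adult offspring of mothers injected intravenously on gestation day 17 with 5 mg/kg poly(I:C), a double-stranded RNA made to imitate a virus. The control group was 6 offspring of mothers given intravenous saline on the same day. Each animal had 1 array, all of them had gone through behavioural tests before dissection, and the comparison asks what prenatal immune activation leaves in the adult cortex. The labels used here give neither litter nor sex, so that the spread behind every p-value is that of animals whose relatedness is unknown. Values are log2 expression per probe set, and array medians lay between 5.15 and 5.21.

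A GABA-A receptor is a ring of 5 subunits, usually a pair of alpha, a pair of beta and a gamma or delta subunit. Receptors with alpha2 or alpha3 and a gamma subunit gather opposite inhibitory terminals and carry fast synaptic currents. Receptors with alpha4 and delta, and many with alpha5, lie outside the synapse, where they respond to low ambient GABA and hold a steady, tonic inhibition that neurosteroids enhance. Beta subunits take part in both kinds and bind GABA at their border with alpha.

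Several of these genes sit side by side in the mouse genome. In the RefSeq gene table of GRCm38.p6, Gabra4 and Gabrb1 on chromosome 5 are direct neighbours whose gene models overlap at their starts, on opposite strands, and 1 protein-coding gene lies between Gabra2 and Gabra4. Gabrb2 on chromosome 11 has Gabra6 as its neighbour, Gabra5 on chromosome 7 lies next to Gabrg3, and Gabra3 on the X chromosome lies next to Gabrq. RefSeq promoter windows, from 250 bases before to 50 bases after a start, were at hand for 6 of the 7 genes, in 10 windows. They were searched on both strands for TATAAA (known as the TATA box), TGACGTCA (a cAMP response element) and GCGNGGGCG (an EGR motif, where N is any base). These motifs do not overlap one another in the windows shown, and among all 32851 windows given, 13.6% hold TATAAA, 1.79% hold TGACGTCA and 5.55% hold GCGNGGGCG. The windows of the facing pair Gabra4 and Gabrb1 are shown because both genes are members and share this stretch of the genome, and that of Gabrb2 because it has the most probe sets; each is the first start listed, read 5′ to 3′ on the gene's own strand, with motif matches in capitals. The Gabra4 window is chr5:71658259-71658558 on the minus strand, the Gabrb1 window chr5:71657671-71657970 on the plus strand and the Gabrb2 window chr11:42420190-42420489 on the plus strand, all in GRCm38.p6.
Gabra4: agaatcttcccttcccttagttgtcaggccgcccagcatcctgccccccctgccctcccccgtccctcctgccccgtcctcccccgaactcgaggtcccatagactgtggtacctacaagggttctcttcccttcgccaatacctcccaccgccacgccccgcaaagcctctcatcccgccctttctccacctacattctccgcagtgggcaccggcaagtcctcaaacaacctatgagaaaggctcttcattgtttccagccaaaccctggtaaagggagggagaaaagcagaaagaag
Gabrb1: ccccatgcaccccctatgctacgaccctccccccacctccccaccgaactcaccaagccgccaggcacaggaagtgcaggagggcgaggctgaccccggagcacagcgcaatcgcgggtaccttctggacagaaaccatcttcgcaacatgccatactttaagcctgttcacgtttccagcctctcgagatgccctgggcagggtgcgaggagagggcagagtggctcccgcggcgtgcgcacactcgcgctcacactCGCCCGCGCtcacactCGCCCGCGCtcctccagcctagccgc
Gabrb2: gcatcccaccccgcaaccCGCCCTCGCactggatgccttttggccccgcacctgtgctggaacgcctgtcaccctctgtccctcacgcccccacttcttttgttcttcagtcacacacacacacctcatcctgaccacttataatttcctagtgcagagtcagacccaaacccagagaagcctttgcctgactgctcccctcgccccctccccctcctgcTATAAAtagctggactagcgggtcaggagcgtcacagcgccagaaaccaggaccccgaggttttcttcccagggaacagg

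The Gabra4 window held none of the 3 motifs in these letters. The first Gabrb1 window held GCGNGGGCG at 2 places, both on the opposite strand as CGCCCGCGC. The first Gabrb2 window held it at 1 place, as CGCCCTCGC, and TATAAA at position 221 counted from the 5′ end of the window. Among the windows not printed, both of Gabra3 held TATAAA in a stretch they share, on the opposite strand as TTTATA (positions 128 and 16). No member window held TGACGTCA. Against a median GC share of 52.7% over all windows, 6 of the 10 member windows lay above and 4 below. The share was 70% for Gabra2, 58.7% for Gabra4, 56.7% for Gabra5, and 43% and 39.3% for the windows of Gabra3. The first and second windows of Gabrb1 had 66% and 50.3%, and the 3 windows of Gabrb2 had 59%, 54.7% and 41%. A match of letters describes the sequence and is no measurement of binding.

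None of the 7 subunit genes differed between PolyI:C and control offspring at an adjusted p under 0.05 (limma, Benjamini-Hochberg over 23099 probe sets), where 2.83% of all probe sets passed, 2.02% higher and 0.805% lower. The means of 6 of the 7 genes lay above those of controls, by 0.043 to 0.13 on the log2 scale, and that of Gabrd lay below by 0.022. These are ratios of at most 1.09-fold. At an unadjusted p under 0.05 in limma, 3 of the 7 were higher (Gabra3, Gabra4 and Gabrb1) and none lower, against 11.7% higher over all probe sets. The groups overlapped in all 7, where 2.37% of probe sets did not overlap.

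That background depends on brightness, and the subunit genes are bright on these arrays. Among the 11550 probe sets at or above the median brightness of 5.81, 65.7% had a higher mean in PolyI:C offspring and 19.1% of them were higher at an unadjusted p under 0.05, while over all probe sets 52% had a higher mean. Of the same brighter probe sets 4.18% passed at the adjusted threshold. The median log2 difference was 0.063 over the 7 genes, 0.026 over the brighter probe sets and 0.0030 over all. After quantile normalization 49.5% of the brighter probe sets had a higher mean, and 6 of the 7 genes still did, with a median of 0.058. In that setting 2 of the 7 were higher at an unadjusted p under 0.05, where 10.7% of the brighter probe sets were.

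**Figure D1:**
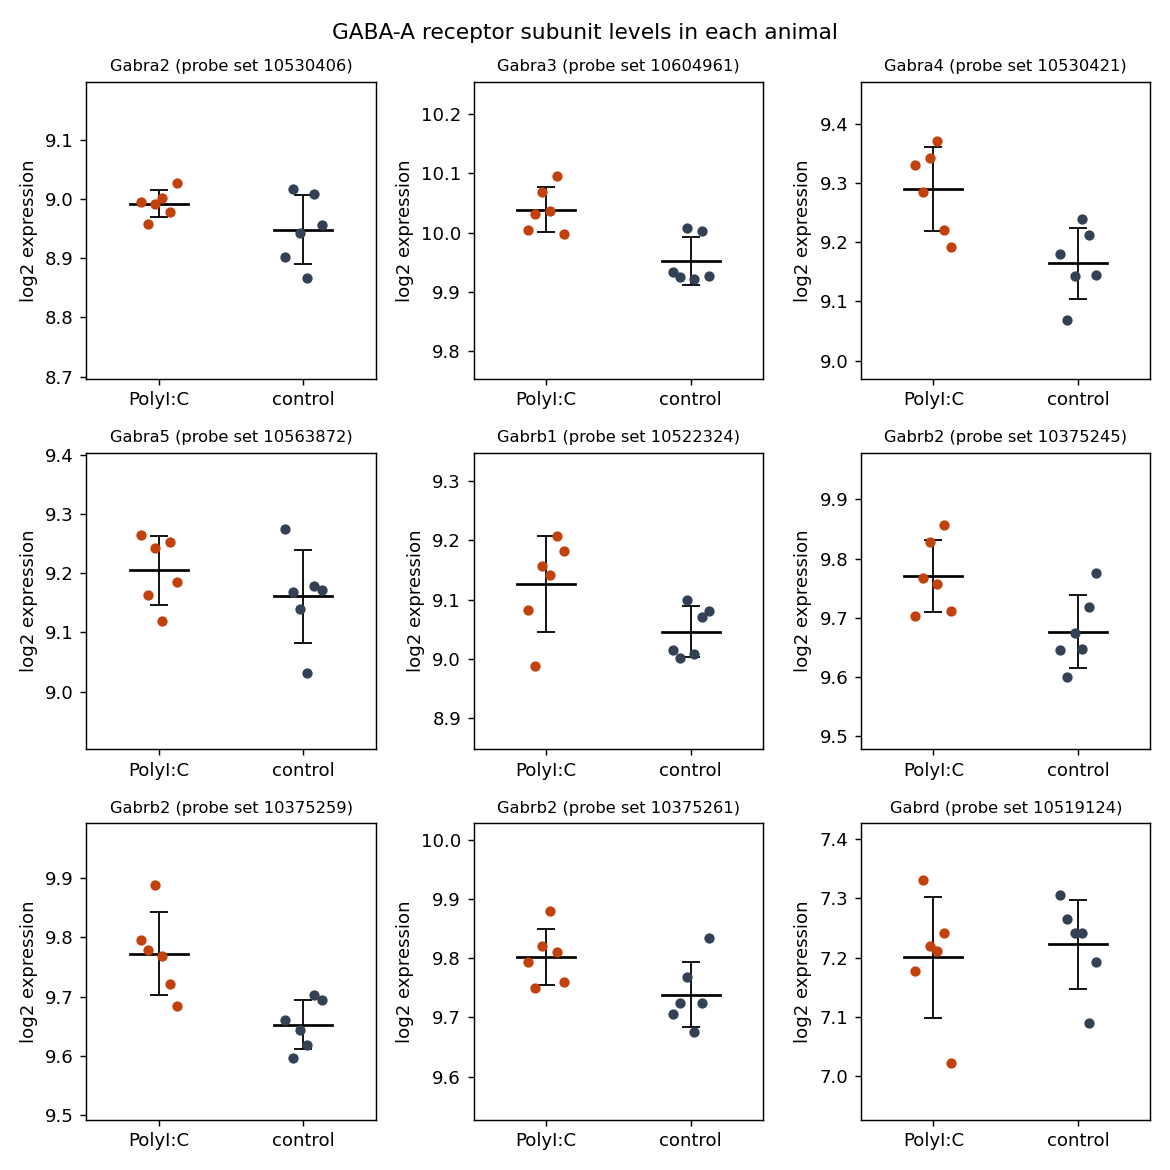
Log2 expression of each subunit probe set in the 6 PolyI:C and 6 control animals. Points are animals, the long bar is the group mean and the whiskers are 1 SD; every panel spans 0.5 log2 units, and the groups overlap in each of the 9 panels.

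Of the alpha subunits of synaptic receptors, Gabra2 encodes alpha2, found at inhibitory synapses on the axon initial segment and soma and known from mice as a site of the calming action of benzodiazepines. Its level (probe set 10530406) ran from 8.96 over a median of 8.99 to 9.03 in PolyI:C offspring and from 8.87 over 8.95 to 9.02 in controls. The PolyI:C animals lay closer together than the controls, and all 6 were above the control mean, but only 1 of them was above every control. The difference was 0.044 ± 0.032 (SE), with a 95% interval from -0.023 to 0.11 (limma adjusted p = 0.47). It was 0.027 without control 4, the lowest of all 12 animals, and 0.017 after quantile normalization.

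Gabra3 encodes alpha3, a synaptic subunit that is abundant in the deep cortical layers. Its level (probe set 10604961) had a lowest, median and highest value of 10.00, 10.03 and 10.10 in PolyI:C offspring, against 9.92, 9.93 and 10.01 in controls. Controls 3 and 5 reached into the PolyI:C range, the other 4 controls lay below every PolyI:C animal, and 6 of 6 PolyI:C animals were above the control mean. The difference was 0.086 ± 0.030 (SE), with a 95% interval from 0.023 to 0.15, and did not pass (limma adjusted p = 0.12; exact permutation p = 0.011, two-sided and unadjusted).

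Of the subunits of extrasynaptic receptors, Gabra4 encodes alpha4, the usual partner of delta in the forebrain, and had the largest difference among the 7 genes. Its level (probe set 10530421) had a lowest, median and highest value of 9.19, 9.31 and 9.37 in PolyI:C offspring, against 9.07, 9.16 and 9.24 in controls. PolyI:C animals 1, 2, 3 and 4 lay above all controls, and PolyI:C animals 5 and 6, at 9.22 and 9.19, lay within the control range. The means were 9.29 ± 0.07 in PolyI:C offspring and 9.16 ± 0.06 in controls (SD, n = 6 each). The difference was 0.13 ± 0.04 (SE), or 1.09-fold, with a 95% interval from 0.044 to 0.21, and did not pass (limma adjusted p = 0.083; exact permutation p = 0.013, two-sided and unadjusted).

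Gabra5 encodes alpha5, which in hippocampus and deep cortical layers carries part of the tonic current. Its level (probe set 10563872) had a lowest, median and highest value of 9.12, 9.21 and 9.26 in PolyI:C offspring, against 9.03, 9.17 and 9.28 in controls. Control 1 was the highest of all 12 animals and control 4 the lowest. The difference was 0.043 ± 0.039 (SE), with a 95% interval from -0.040 to 0.13 (limma adjusted p = 0.58). It was 0.066 without control 1, 0.017 without control 4 and 0.021 after quantile normalization.

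Gabrd encodes delta, the subunit that keeps receptors outside the synapse and makes them sensitive to neurosteroids. Its level (probe set 10519124) had a lowest, median and highest value of 7.02, 7.22 and 7.33 in PolyI:C offspring, against 7.09, 7.24 and 7.30 in controls. PolyI:C animal 6 was the lowest of the 12 and PolyI:C animal 2 the highest, so that the control range fell inside that of the PolyI:C offspring. The difference was -0.022 ± 0.047 (SE), with a 95% interval from -0.12 to 0.077 (limma adjusted p = 0.84), and it was 0.014 without PolyI:C animal 6.

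The beta subunits complete both kinds of receptor. Gabrb1 encodes beta1, and its level (probe set 10522324) had a lowest, median and highest value of 8.99, 9.15 and 9.21 in PolyI:C offspring, against 9.00, 9.04 and 9.10 in controls. PolyI:C animals 3 to 6 lay above every control, while PolyI:C animal 2 was the lowest of all 12. The difference was 0.080 ± 0.038 (SE), with a 95% interval from 0.00040 to 0.16 (limma adjusted p = 0.26; exact permutation p = 0.067, two-sided and unadjusted).

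Gabrb2 encodes beta2, an abundant beta subunit of cortical receptors. Its brightest probe set, 10375261, had a lowest, median and highest value of 9.75, 9.80 and 9.88 in PolyI:C offspring, against 9.68, 9.72 and 9.83 in controls. Probe set 10375245 had 9.70, 9.76 and 9.86 in PolyI:C offspring, against 9.60, 9.66 and 9.78 in controls. Probe set 10375259 had 9.69, 9.77 and 9.89 in PolyI:C offspring, against 9.60, 9.65 and 9.70 in controls. All 6 PolyI:C animals were above the control mean on each of the 3 probe sets, and on 10375259 5 of them were above every control.

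The log2 differences of the Gabrb2 probe sets were 0.063 ± 0.034 (SE) for 10375261, 0.094 ± 0.037 for 10375245 and 0.12 ± 0.04 for 10375259. None passed (limma adjusted p = 0.32, 0.17 and 0.075 in that order). The last one passed in 2 other settings of limma, with trend and robust moderation (adjusted p = 0.041) and when only the brighter probe sets were tested (0.048). The mean of the 3 probe sets differed by 0.092 (adjusted p = 0.12). The stretches of the gene that each of them covers were not looked up.

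**Figure D2:**
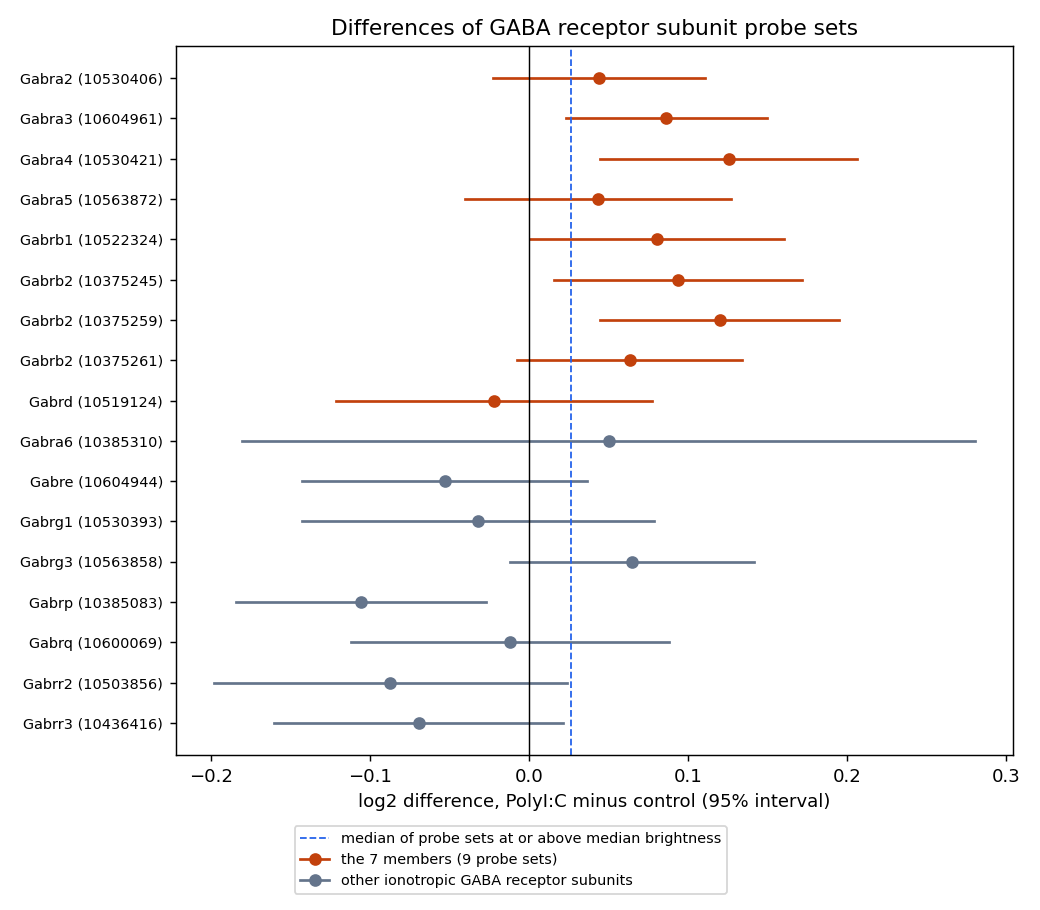
Log2 difference, PolyI:C minus control, of the 9 probe sets of the 7 subunit genes and of 8 other ionotropic GABA receptor subunits, with 95% intervals from limma. The dashed line is the median of the brighter probe sets, 0.026; Gabra4 and Gabrb2 probe set 10375259 lie farthest to the right among the 9, and Gabrd lies below 0.

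Synaptic and extrasynaptic subunits were then set side by side, as a description without a test. The mean over Gabra2 and Gabra3 was 9.52 ± 0.02 in PolyI:C offspring and 9.45 ± 0.04 in controls (log2, SD, n = 6 each), a difference of 0.065, and all 6 PolyI:C animals were above the control mean. The mean over Gabra4, Gabra5 and Gabrd was 8.56 ± 0.05 in PolyI:C offspring and 8.52 ± 0.03 in controls, a difference of 0.049, with PolyI:C animal 6 below the control mean. The mean over Gabrb1 and Gabrb2 differed by 0.072.

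The balance between the classes, extrasynaptic minus synaptic, ran from -1.05 to -0.90 in PolyI:C offspring and from -1.01 to -0.83 in controls. Its means were -0.95 ± 0.05 in PolyI:C offspring and -0.93 ± 0.06 in controls (SD, n = 6 each), a difference of -0.016, smaller than the spread within either group. The extrasynaptic class was not uniform, since it held both the highest of the 7 differences, that of Gabra4, and the only one below 0, that of its partner Gabrd. With Gabra5 left out, or with the beta subunits counted among the synaptic ones, with any 1 animal left out or without controls 5 and 6 together, the difference of the balance stayed between -0.036 and 0.0046.

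**Figure D3:**
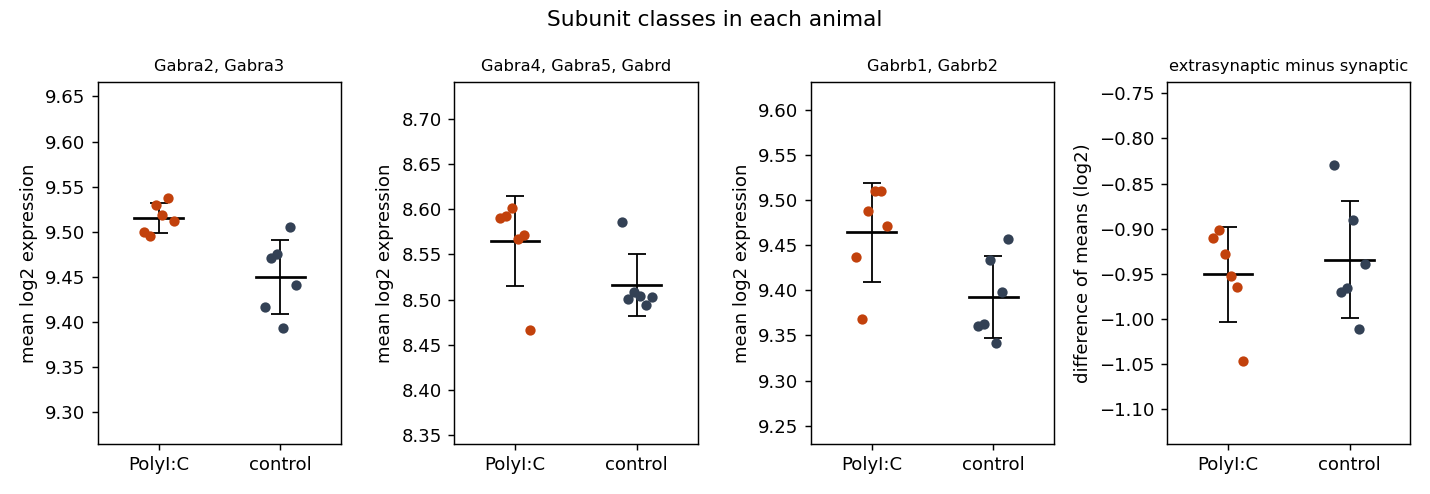
Mean log2 expression per animal of the synaptic (Gabra2, Gabra3), extrasynaptic (Gabra4, Gabra5, Gabrd) and beta (Gabrb1, Gabrb2) subunits, and the extrasynaptic minus synaptic balance, in 6 PolyI:C and 6 control animals. Points are animals, the long bar is the mean and the whiskers are 1 SD; the balance spans -1.05 to -0.90 in PolyI:C offspring and -1.01 to -0.83 in controls.

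From animal to animal, pairs of the 7 genes correlated with either sign. Over the 12 animals, after the group means had been removed, Pearson's r between pairs of members ran from -0.55 to 0.49 with a median of 0.105 over 21 pairs, and none passed after adjustment (lowest adjusted permutation p = 0.65). The facing neighbours Gabra4 and Gabrb1, whose windows are printed above, had r = -0.22 (permutation p = 0.56) and Spearman's rho = -0.33 (permutation p = 0.34), and r = -0.28 without the 2 animals farthest from the Gabra4 median. The 3 Gabrb2 probe sets correlated with one another at r = 0.345 to 0.535 (n = 12), so that part of the spread within groups is not shared between probe sets of 1 gene.

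The genes most like each member were looked for among 9518 others at or above the median brightness, by r of the deviations from group means over the 12 animals. Gabra3 was matched most closely, by Tfg (r = 0.96) and Cacybp (0.95). Gabra4 was followed by Kif2a (0.90) and Ero1a (0.89), and Gabra5 by Cope (0.93) and Nrbp1 (0.89). Gabrb1 had Ugp2 and Ccnh (both 0.92), Gabrb2 had Ppp1r3g and Esd (both 0.91), Gabrd had Sipa1l2 (0.91) and Fto (0.86), and Gabra2 had Arhgef26 (0.90) and Cd81 (0.87). No other member was among these, and each r is the highest picked from that whole search.

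Other ionotropic subunits gave no call either, with 0 of 8 genes analysed here passing in limma and 1, Gabrp, lower at an unadjusted p under 0.05, where 2.83% of all probe sets passed and 7.33% were lower at the unadjusted threshold. Gabrg3, the gamma3 subunit, was at 8.64 ± 0.06 in PolyI:C offspring and 8.58 ± 0.06 in controls (SD, n = 6 each), a difference of 0.065, or 0.035 after quantile normalization. Gabrg1, the gamma1 subunit, differed by -0.032, and the sign turned without control 5 (0.00029). The remaining 6, Gabra6, Gabre, Gabrp, Gabrq, Gabrr2 and Gabrr3, had means from 3.39 to 4.37, below the median of the tested probe sets. Of these, Gabre (epsilon) differed by -0.053 (-0.024 without control 3), Gabrq (theta) by -0.012, and the rho subunits of retinal receptors, Gabrr2 and Gabrr3, by -0.087 (-0.13 without controls 5 and 6) and -0.070 (-0.045 without control 3). The median difference of the 8 was -0.043, with 2 means above and 6 below those of controls.

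Gabra6 encodes alpha6, a subunit of cerebellar granule cells, and served as a marker that cortex should lack. Its level was 3.22 to 3.38 in 5 PolyI:C animals and 4.12 in PolyI:C animal 2, against 3.31 to 3.46 in controls. The difference was 0.050 with that animal and -0.082 without it. The same animal was the highest of all 12 for 3 other markers of cerebellum, Pcp2 of Purkinje cells (4.95, the next at 4.70), Cbln1 (5.85, the next at 5.61) and Neurod1 (6.46, the next at 6.33). The summed level of 8 thalamic and cerebellar markers, Gabra6 among them, was 8.56 in it and 8.28 to 8.42 in the other PolyI:C animals, against 8.33 to 8.51 in controls, and none of the 8 passed. None of the thalamic markers of that list, Tcf7l2, Prkcd, Lhx9 and Gbx2, was highest of all 12 in that animal. They were at 5.80, 5.78, 4.60 and 5.58 in PolyI:C animal 2. These values lay above the PolyI:C means of 5.78, 5.71, 4.56 and 5.51 and below the control means of 5.89, 5.87, 4.62 and 5.59. No member passed without PolyI:C animal 2, where Gabra4 differed by 0.13, Gabrb1 by 0.11 and Gabrd by -0.048. Gabrp, the pi subunit known from tissues outside the brain, differed by -0.11 ± 0.04 (SE; limma adjusted p = 0.13), and passed without PolyI:C animal 2 (-0.13, adjusted p = 0.040).

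Around the receptor, 4 lists of related genes held 44 measured genes of 48 listed, and none passed in limma, where 2.83% of all probe sets did. At an unadjusted p under 0.05, 3 of the 44 were higher and 3 lower, where 11.7% of all probe sets were higher and 7.33% lower, and the median difference was -0.011. Among 20 genes for anchoring and trafficking of the receptor, 10 means lay above and 10 below those of controls, with a median difference of 0.0064. Slitrk3, a postsynaptic adhesion protein that organizes inhibitory synapses, differed by 0.078 ± 0.028 (SE), Lhfpl4, which holds receptors at synapses, by -0.069 ± 0.032 and Hap1, a carrier of receptors on microtubules, by -0.080 ± 0.051 (limma adjusted p = 0.13, 0.25 and 0.42 in that order).

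Among 6 genes of the metabotropic GABA-B receptor all means lay above those of controls, where 65.7% of the brighter probe sets and 52% of all did. Their median difference was 0.028, near the 0.026 of the brighter probe sets, and 2 of the 6 lay below the median brightness. Kctd16, an auxiliary subunit that shapes GABA-B signalling, had the lowest p, at 8.61 ± 0.12 in PolyI:C offspring and 8.41 ± 0.11 in controls (SD, n = 6 each), a difference of 0.20 ± 0.06 (SE; limma adjusted p = 0.070). It passed without control 4 or without PolyI:C animal 5 (adjusted p = 0.0332 and 0.0215), with array weights (0.045) and when only the brighter probe sets were tested (0.0499). In the other 18 of 22 alternatives Kctd16 did not pass, among them quantile normalization (limma adjusted p = 0.14) and the fit without variance moderation (0.16). The receptor subunits themselves, Gabbr1 and Gabbr2, differed by 0.030 and 0.034. Gabbr1 differed by 0.017 without control 3 and by 0.013 after quantile normalization, and Gabbr2 by 0.020 without control 5, 0.0092 without controls 5 and 6, and 0.018 after quantile normalization.

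Among 10 genes for the supply and uptake of GABA and for neuronal chloride transport, 9 means lay below those of controls and 1 above. Their median difference was -0.029, while 52% of all probe sets and 65.7% of the brighter ones had higher means. At an unadjusted p under 0.05 in limma 2 of the 10 were lower, against 7.33% of all probe sets, and none passed after adjustment. Slc32a1, the vesicular GABA transporter, was at 6.96 ± 0.06 in PolyI:C offspring and 7.06 ± 0.08 in controls, a difference of -0.096 ± 0.041 (SE; limma adjusted p = 0.21). Slc6a13, a GABA transporter of the meninges and vessels, differed by -0.32 ± 0.12 (adjusted p = 0.16), and Abat, which breaks GABA down, by -0.058 ± 0.033 (0.35). Among 8 genes for neurosteroids and related ligands, Srd5a3, of the steroid 5-alpha-reductase family, differed by 0.11 ± 0.04 (adjusted p = 0.12) on its brightest probe set. Its dimmer probe set 10530731 differed by 0.016 (limma adjusted p = 0.88). Hsd3b2, a steroid dehydrogenase, differed by -0.067 ± 0.036 (0.32) and Tspo, a mitochondrial outer membrane protein, by -0.059 ± 0.059 (0.62). Both lay below the median of the tested probe sets, with means of 3.288 and 4.665. Tspo differed by -0.017 without control 3 and by -0.10 without control 4.

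The tissue carried the markers its label calls for, with Slc17a7, the vesicular glutamate transporter of cortical pyramidal neurons, at 10.81 in both groups, and Snap25, a neuronal release protein, at 11.59 in both. Other markers did move with the groups. As background, 52% of all probe sets and 65.7% of the brighter ones had higher means, and 0.805% of all passed lower. All 9 measured oligodendrocyte markers had lower means and 5 of them passed, among them Mobp of the myelin sheath (-0.50, a call lost without variance moderation), and their summed level was 10.47 to 11.01 in PolyI:C offspring and 10.97 to 11.34 in controls (log2 of the summed linear values). All 11 striatal markers had lower means and 1, Ppp1r1b, passed (-0.27), a call lost in 8 of 22 settings, among them the removal of control 2, control 6 or PolyI:C animals 1, 3 or 4. The summed striatal level was 10.5 to 10.6 in PolyI:C offspring and 10.5 to 11.1 in controls, with controls 5 and 6 the highest at 11.13 and 10.98. Without controls 5 and 6 together Ppp1r1b differed by -0.18, against -0.30 to -0.22 with 1 animal left out.

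Of the cortical layer markers, 9 of 10 upper-layer genes had higher means, where 65.7% of the brighter probe sets did, and none passed. Their summed levels were 11.4 to 11.6 in PolyI:C offspring and 11.4 to 11.5 in controls. For the deep layers 11 of 12 had lower means and 1, Bcl11b, passed (-0.16, limma adjusted p = 0.040). Over all probe sets 0.805% passed with a lower mean, and the Bcl11b call was not followed in the other settings. The summed levels of the deep-layer genes overlapped, at 11.292 to 11.534 in PolyI:C offspring and 11.466 to 11.555 in controls. Interneuron markers gave no call in 12 genes, with 11.9 to 12.0 in both groups. The part of these markers in the subunit values was not tested, and in tissue RNA fewer cells of a type and less RNA per cell cannot be told apart. Without controls 5 and 6, a setting chosen after seeing the data, no member passed, Gabra4 differed by 0.13 and Gabra3 by 0.092.

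**Figure D4:**
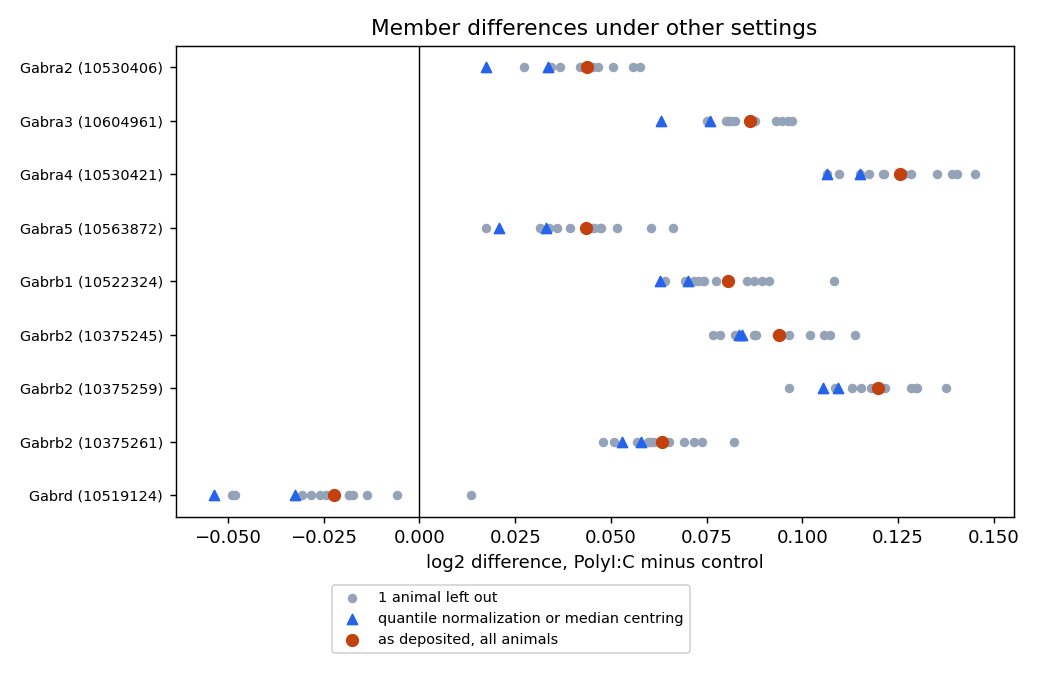
Log2 difference, PolyI:C minus control, of the 9 probe sets with all animals as deposited, with each of the 12 animals left out in turn, and after quantile normalization or median centring. All points of Gabra2, Gabra3, Gabra4, Gabra5, Gabrb1 and Gabrb2 lie above 0, and Gabrd crosses 0 once, without PolyI:C animal 6 (0.014).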

How the data were processed

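RNA of the medial prefrontal cortex (250 ng per array) was measured on Affymetrix Mouse Gene 1.1 ST strips, per the labels' protocols. The authors deposited 1 log2 value per probe set and animal, as its range shows. The submitters' processing notes list RMA and Partek 6.6 and no more, so that annotation and build are not given there. Normalization that makes arrays alike can compress small differences. The number of arrays limits the precision.

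Of 35556 rows, 23099 with a gene in the platform annotation were tested; 21218 carried 1 gene, of which 21185 matched the RefSeq gene table. PolyI:C and control were compared in limma 3.58.1 under R 4.3.3 (lmFit, then eBayes), two-sided, with no covariate, Benjamini-Hochberg adjusted; the fit was tested on simulated data. Exact permutation tests used all 924 splits. Correlations used 100000 permutations within groups (Python 3.11.15, numpy 2.4.6, scipy 1.17.1); plots used matplotlib 3.10.9. Promoter sequences are RefSeq's (GRCm38.p6).

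The named genes were the members, 8 other subunits (some genes are not reported here), the 3 genes of lowest p in each related list (none was called), the 2 closest genes by correlation, and tissue markers. Members and lists were chosen with earlier results of these data known. Alternatives were quantile normalization or median centring, filters on brightness (25th and 50th percentile), array weights, a replicate block, all rows, other moderation, the mean over probe sets, and leaving out each animal. Same-numbered animals deviated from their group means with r from -0.092 to 0.11, so the numbers were not taken as pairs.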

Additional observations from a re-analysis of the deposited data

Results flagged for a closer look

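Dixon's criterion, which chance alone meets in about 5% of groups, was applied to 64 groups of 6 animals. These were the groups of the 9 member probe sets, the 8 other subunits, the 3 genes named from each related list, Mobp, Ppp1r1b and the balance. In 6 of the 64, 1 animal was far from the others. The remaining markers, Pcp2, Cbln1 and Neurod1 among them, and the genes found by correlation were not examined in this way. Gabra6 in PolyI:C animal 2 was at 4.12, against at most 3.38 in the other 5, and Gabra6 in control 6 was at 3.31, with the other controls from 3.41. PolyI:C animal 2 was also the highest of its group for Gabrp, at 4.07 with the next at 3.94, and for Gabrr3, at 3.51 with the next at 3.36. All these probe sets lie below the median brightness. The cerebellar markers Pcp2, Cbln1 and Neurod1 were highest of all 12 animals in PolyI:C animal 2 as well, at 4.95, 5.85 and 6.46, and so was the summed thalamic and cerebellar level, at 8.56. The thalamic markers of that sum, Tcf7l2, Prkcd, Lhx9 and Gbx2, lay above their PolyI:C means and below their control means in the same animal. Gabbr1 was at 10.27 in control 3, with the other controls from 10.33. Mobp was at 7.73 in PolyI:C animal 4, with the next at 8.18. None of the 9 probe sets of the 7 members was among these.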

How the results depend on the processing

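Leaving aside the dimmer Gabrb2 probe sets, none of the 7 members passed at an adjusted p under 0.05 in limma in any of the 23 alternatives. Gabrb2 probe set 10375259 passed with trend and robust moderation (limma adjusted p = 0.041) and when only the brighter probe sets were tested (0.048). Without variance moderation 2 of the 7 members had an unadjusted p under 0.05. Gabra4 had adjusted p from 0.052 to 0.17 over its alternatives and differences from 0.11 to 0.15; Gabra3 had adjusted p from 0.064 to 0.25. The number of related GABA genes called was 0 to 1 with 1 animal left out, and 1 with array weights or when only the brighter probe sets were tested, each time Kctd16. Signs turned for Gabrd without PolyI:C animal 6 (0.014), for Gabrg1 without control 5 (0.00029) and without controls 5 and 6 together (0.028), for Gabra6 without PolyI:C animal 2 (-0.082), and for Gabrq without PolyI:C animal 2 (0.0041) or 3 (0.022), all with limma adjusted p above the threshold; the cause was not tested. With 1 animal left out these differences ran from -0.049 to 0.014 for Gabrd, -0.066 to 0.00029 for Gabrg1, -0.082 to 0.10 for Gabra6 and -0.048 to 0.022 for Gabrq.

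Over all probe sets 653 passed, 467 higher and 186 lower. With all rows tested it was 414 (296 and 118), which tests more probe sets, and without moderation 122 (94 and 28). Quantile normalization gave 239 higher calls and 285 lower, and median centring 298 higher and 232 lower. With 1 animal left out the count ran from 230 to 818, higher calls from 154 to 586 and lower calls from 73 to 232; it was 331, 230 and 281 without control 1, 2 or 3, and 236, 396, 302 and 392 without PolyI:C animal 1, 3, 4 or 6. With the replicate number as a block 536 passed and no member did, Gabra4 being at adjusted p = 0.095; 0 of 6 PolyI:C animals correlated best with the control of the same number. The balance of extrasynaptic and synaptic subunits differed by -0.032 to 0.0046 with 1 animal left out.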
